A study of Homo sapiens with 15 samples.

Results

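The 10 genes described here are FOS, FOSB, FOSL1, FOSL2, JUN, JUNB, JUND, ATF3, EGR1 and IER2, taken by symbol from the 59608 genes of the deposited table. Each symbol matched 1 gene. All 10 passed the filter on low values, a mean over all libraries of 10 or more normalized counts, as did 13561 genes in all, which were the genes tested. Their RNA was measured in MDA-MB-231, a line of human breast cancer cells of mesenchymal character without hormone receptors, grown as a 2D layer in serum-containing medium. Dishes received DMSO at 0.1% or ZJ-101, an analog of the marine natural product superstolide, at 0.5, 5, 50 or 500 nM, and poly-A RNA was taken after 6 h from 3 biological replicates of each of the 5 groups. The DMSO content of the treated dishes is not given in the sources used here. One cell line at one time point limits what the groups can represent.

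AP-1 is a dimer of basic leucine zipper proteins that binds DNA at short palindromic sites. Proteins of the FOS family need a partner, usually of the JUN family, while JUN proteins also pair among themselves or with ATF proteins. FOS, FOSB, JUN, JUNB, ATF3, EGR1 and IER2 belong to the immediate-early genes, whose transcripts appear within minutes of a growth factor, serum or stress signal without new protein synthesis and are mostly short-lived. FOSL1, which encodes FRA-1, is the FOS family member best known from mesenchymal breast cancer cells, and its expression is driven by ERK signalling and by AP-1 itself.

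A library held between 12415519 and 15284762 reads on genes, of which 0.889% to 2.06% were mitochondrial. For 0.5 nM replicate 2, a chi-square test of its counts against the other libraries of that dose gave 11.1 and 16.5 per degree of freedom, where every other pair of replicates gave between 2.04 and 6.27. This library stood apart, and the main values at 0.5 nM are also given without it. The cells carried the markers of the line, with VIM between 13433 and 18413 normalized counts and CD44 between 9275 and 12291. The oestrogen receptor gene ESR1 lay between 0 and 4.30, and the progesterone receptor gene PGR, low but present, between 5.37 and 17.3. The blood cell gene PTPRC lay between 0 and 3.53, CD3E at 0 in every library, and the fibroblast genes LUM and DCN at or under 5.32. PDGFRB, the other fibroblast marker, lay between 29.0 and 61.7, and CDH1 and EPCAM, which were listed as low, between 107 and 206 and between 266 and 320.

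Promoter sequences are shown for 4 of the members whose RNA passed the threshold at 500 nM, JUN, which rose, and FOS, JUNB and JUND, which fell. They are RefSeq windows on GRCh38.p14 that run from 250 bases before the transcription start to 50 bases after it. Windows matched 9 of the 10 members, all but FOSL1. Capitals mark matches to the motifs searched on both strands, which were the AP-1 site TGANTCA, the CRE-like site TGACNTCA, the CArG box, the EGR site GCGNGGGCG and the TATA box TATAAA. No marked matches overlap each other. The JUN window lies at chr1:58783998-58784297 on the minus strand, FOS at chr14:75278578-75278877 on the plus strand, JUNB at chr19:12791236-12791535 on the plus strand and JUND at chr19:18281573-18281872 on the minus strand.
JUN: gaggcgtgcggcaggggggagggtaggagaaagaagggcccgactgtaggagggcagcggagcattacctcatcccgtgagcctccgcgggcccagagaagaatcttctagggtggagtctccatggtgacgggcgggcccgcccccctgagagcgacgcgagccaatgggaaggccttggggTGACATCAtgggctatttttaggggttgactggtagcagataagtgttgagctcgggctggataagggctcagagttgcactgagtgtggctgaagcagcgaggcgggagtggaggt
FOS: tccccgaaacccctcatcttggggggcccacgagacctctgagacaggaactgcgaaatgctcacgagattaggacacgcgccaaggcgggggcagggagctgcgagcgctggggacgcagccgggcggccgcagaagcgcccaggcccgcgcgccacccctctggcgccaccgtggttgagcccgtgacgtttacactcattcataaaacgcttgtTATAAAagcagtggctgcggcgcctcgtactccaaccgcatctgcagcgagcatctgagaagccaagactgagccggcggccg
JUNB: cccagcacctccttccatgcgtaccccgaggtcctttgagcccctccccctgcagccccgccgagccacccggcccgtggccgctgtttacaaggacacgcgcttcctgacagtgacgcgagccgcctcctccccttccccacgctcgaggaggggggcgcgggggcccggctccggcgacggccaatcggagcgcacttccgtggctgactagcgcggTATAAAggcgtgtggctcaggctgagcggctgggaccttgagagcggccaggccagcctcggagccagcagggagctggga
JUND: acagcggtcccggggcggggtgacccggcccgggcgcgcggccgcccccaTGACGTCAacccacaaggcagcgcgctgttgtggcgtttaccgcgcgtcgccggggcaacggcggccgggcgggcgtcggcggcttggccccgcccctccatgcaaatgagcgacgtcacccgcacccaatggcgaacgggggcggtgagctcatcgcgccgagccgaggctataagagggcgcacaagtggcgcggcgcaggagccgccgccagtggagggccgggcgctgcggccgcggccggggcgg

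The JUN window holds a CRE-like site that begins at position -67 from the start, and the JUND window one that begins at -200. ATF3 was the only other member with this motif, at -123 of the upstream one of its windows. So 3 of 9 members had it, against 7.72% of all 35114 promoter windows and 6.15% of those of tested genes. The members are counted as genes and the shares as windows, and ATF3 has an upstream and a downstream window. FOS and JUNB hold a TATA box at -33 and -31, as does FOSB at -30. TATAAA at any position and on either strand was present in 11.5% of all windows and 6.21% of those of tested genes. ATF3 has a further TATAAA match at -230 of its downstream window. FOSL2 has an AP-1 site, found in 7.71% of all windows and 5.38% of those of tested genes, at position 5 after the start. Among the 9 members with a window, EGR1 is the only one with CArG boxes, the binding motif of SRF, inside it. They lie at -105 and -83, beside an EGR site at -198. CArG boxes were present in 1.29% of all windows and 1.09% of those of tested genes, EGR sites in 9.43% and 14.7%. Sites outside the windows were not searched. JUN and JUND, which share the CRE-like motif, moved in opposite directions at 500 nM. IER2 held none of these letters in its window.

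Levels were compared between genes per kb of the canonical transcript. In DMSO, FOSL1 was the highest with 2709 ± 141 normalized counts per kb (SD, n = 3), followed by FOSL2 with 1028 ± 49.0. JUND followed with 861 ± 18.3, JUN with 738 ± 33.2 and JUNB with 333 ± 43.7. Below the JUN family stood IER2 with 162 ± 6.82, FOS with 103 ± 21.6, EGR1 with 58.5 ± 21.6, ATF3 with 36.8 ± 1.60 and FOSB with 3.87 ± 0.399. No neighbours in this order overlapped in DMSO on this scale. At 500 nM, JUN with 928 ± 32.0 per kb stood above JUND with 609 ± 84.0, and the 2 genes did not overlap. In the same libraries JUNB, with 167 ± 21.0 per kb, overlapped IER2, with 147 ± 7.05. FOS, with 45.1 ± 9.28 per kb, overlapped EGR1 above it and ATF3 below it. Per kb of all exons, the order of the genes was the same, but the overlaps were not. FOS (59.5 to 84.5) and EGR1 (44.3 to 83.3) then overlapped in DMSO, and no neighbours did at 500 nM. These orders are descriptions, with no test.

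Against DMSO, 2 members passed the threshold at 0.5 nM, 3 at 5 nM, 3 at 50 nM and 5 at 500 nM (limma with Benjamini-Hochberg adjustment over 13561 genes, adjusted p under 0.05). The share of all tested genes that passed was 1.17%, 2.18%, 6% and 17.8% at these doses. At 0.5 nM, 1 member rose and 1 fell, while 0.251% of all genes rose and 0.922% fell. At 5 nM, 2 rose and 1 fell, against 0.465% and 1.71% of all genes. At 50 nM, 2 rose and 1 fell, against 2.29% and 3.71%, and at 500 nM 2 rose and 3 fell, against 7.69% and 10.1%. JUN rose at every dose, FOSL1 rose from 5 nM on, FOS fell at 0.5, 5 and 500 nM, JUNB fell at 50 and 500 nM, and JUND fell at 500 nM. FOSB, FOSL2, ATF3, EGR1 and IER2 passed at no dose. The 3 libraries of a dose did not overlap those of DMSO for 3, 4, 6 and 7 of the 10 members, against 18.1%, 23.2%, 24.8% and 38.5% of all tested genes. At 500 nM the median change of the members was 0.02 on the log2 scale, against 0.003 over all genes. All 4 doses share the DMSO libraries, so their changes are not independent. In bulk RNA, fewer cells that express a gene and less of its RNA per cell cannot be told apart.

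**Figure D1:**
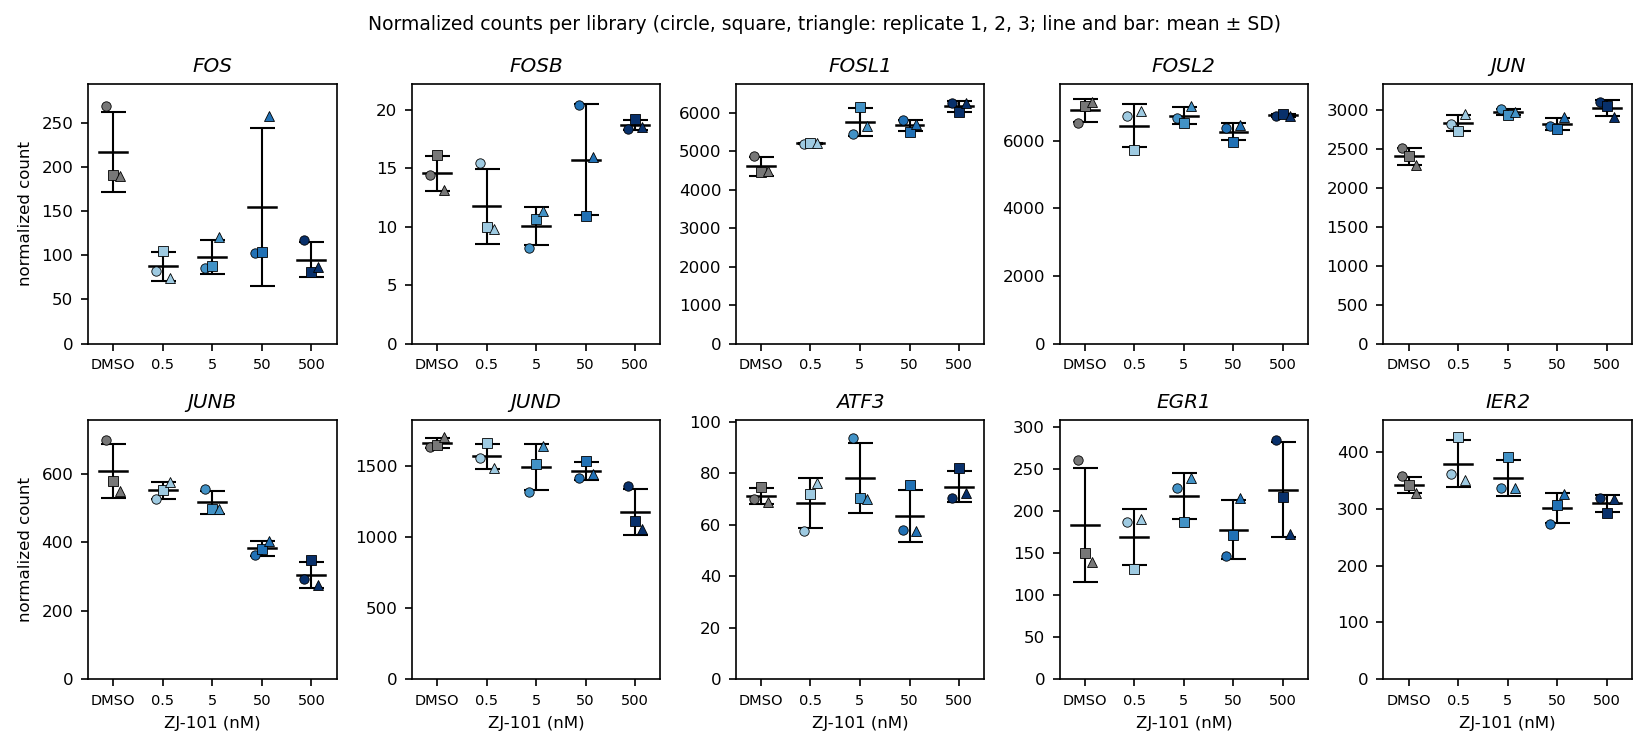
Normalized counts of the 10 genes in each of the 15 libraries, with DMSO and the dose of ZJ-101 (nM) on the horizontal axis, the replicates as separate symbols, and the mean ± SD of 3 libraries as line and bar on axes that start at 0. FOSL1 and JUN lie above DMSO in every library of 5, 50 and 500 nM, JUNB and JUND lie lowest at 500 nM, and 1 library of 50 nM (257) lies inside the DMSO range of FOS.

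FOS, the founding member of its family and an unstable partner of JUN proteins, had the largest fall on the log2 scale. The gene lies at chr14:75278826-75282230 on the plus strand (GRCh38, as for all positions) and has 4 exons. In DMSO it stood at 269, 191 and 190 normalized counts, from 187 to 280 reads. At 0.5 nM the libraries had 82.4, 105 and 74.3, and at 5 nM 85.7, 88.2 and 121. All 6 of these lie below the lowest DMSO library. At 50 nM 2 libraries lay at 102 and 104, while replicate 3 lay at 257, inside the DMSO range. At 500 nM the values were 117, 80.9 and 86.6, again all under DMSO.

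The log2 change of FOS was -1.30 ± 0.27 (SE) at 0.5 nM (limma, adjusted p = 0.023), -1.13 ± 0.27 at 5 nM (adjusted p = 0.032) and -1.18 ± 0.27 at 500 nM (adjusted p = 0.0042). At 50 nM it was -0.61 (95% interval -1.17 to -0.04, adjusted p = 0.24). Without 50 nM replicate 3 that value became -1.05 (adjusted p = 0.0036), where all alternatives gave an adjusted p between 0.0036 and 0.64. FOS did not differ past the threshold between neighbouring doses, and its slope, fitted on dose rank from DMSO to 500 nM, was -0.17 per step (adjusted p = 0.21). Over the 12 treated libraries alone this slope was 0.09 (adjusted p = 0.60). The adjusted p at the lower doses moved past the threshold when single libraries were left out, while the size of the change stayed between -1.13 and -1.38 at 0.5 nM and between -0.97 and -1.22 at 5 nM in those fits. At 0.5 nM, FOS no longer passed without DMSO replicate 1 (adjusted p = 0.14), 2 (0.070) or 3 (0.073) or without 0.5 nM replicate 1 (0.076), and at 5 nM it did not pass when DMSO replicate 1 (0.18), 2 (0.079) or 3 (0.074), or 5 nM replicate 1 or 2 (0.14 each), was left out. Without 0.5 nM replicate 2, the change at 0.5 nM was -1.44 (adjusted p = 0.018).

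FOSL1, at chr11:65892049-65900573 on the minus strand with 4 exons, was the FOS family gene that rose. Its DMSO libraries had 4887, 4462 and 4482 normalized counts, and the libraries at 0.5 nM 5196, 5219 and 5220. At 5 nM it stood at 5466, 6163 and 5674, and at 50 nM at 5814, 5515 and 5705. At 500 nM the values were 6260, 6018 and 6268. Every treated library lay above every DMSO library. The log2 change was 0.18 ± 0.05 at 0.5 nM (adjusted p = 0.084), 0.32 at 5 nM (adjusted p = 9.7e-04), 0.30 at 50 nM (adjusted p = 3.2e-04) and 0.42 at 500 nM (adjusted p = 2.9e-06), all with an SE of 0.05. At 0.5 nM it passed with DESeq2 (adjusted p = 0.022), the lowest of a range of 0.022 to 0.28, and without 0.5 nM replicate 2 the change was 0.18 (adjusted p = 0.090). Its slope on dose rank was 0.10 ± 0.01 per step (adjusted p = 1.7e-05). No single step between neighbouring doses passed, the largest being 0.14 from 0.5 to 5 nM (adjusted p = 0.49).

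FOSL2, which encodes FRA-2 and is the other abundant FOS family gene of these cells, lay between 5729 and 7144 normalized counts over all 15 libraries. It has 4 exons at chr2:28392448-28417317 on the plus strand. Its lowest library was 0.5 nM replicate 2, the one that stood apart. Its log2 change at 500 nM was -0.03 (95% interval -0.15 to 0.09, adjusted p = 0.79). At 50 nM the libraries, at 5975 to 6465, lay below those of DMSO, at 6524 to 7144. That change was -0.14 (adjusted p = 0.22), and it passed only without 0.5 nM replicate 2 (adjusted p = 0.037, range over alternatives 0.037 to 0.50).

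FOSB, a FOS family gene induced strongly by acute stimuli, with 4 exons at chr19:45467995-45475179 on the plus strand, was barely present, with 9 to 21 reads per library. It lay below DMSO in all libraries of 5 nM (8.21 to 11.3 against 13.2 to 16.2 normalized counts) and above DMSO in all libraries of 500 nM (18.3 to 19.2). The changes were -0.50 (95% interval -1.07 to 0.07, adjusted p = 0.47) and 0.34 (95% interval -0.23 to 0.91, adjusted p = 0.45). Neither change passed, and both intervals include 0.

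JUN, the founding member of the JUN family and the classic partner of FOS, was raised at the lowest dose and stayed near that level. It is a gene of 1 exon at chr1:58776845-58784048 on the minus strand. The DMSO libraries had 2509, 2412 and 2293 normalized counts. At 0.5 nM they had 2815, 2735 and 2948, and at 5 nM 3012, 2932 and 2981. At 50 nM JUN stood at 2790, 2755 and 2907, and at 500 nM at 3108, 3055 and 2907. All 12 treated libraries lay above all 3 of DMSO.

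The log2 change of JUN was 0.24 at 0.5 nM (adjusted p = 0.014), 0.31 at 5 nM (adjusted p = 9.7e-04), 0.23 at 50 nM (adjusted p = 0.0028) and 0.33 at 500 nM (adjusted p = 2.6e-05), each with an SE of 0.04. No step between neighbouring doses passed, and the 50 nM libraries lay below those of 5 nM by 0.08 (95% interval -0.17 to 0.01, adjusted p = 0.39). The slope of 0.07 ± 0.02 per step over all libraries (adjusted p = 0.0039) became 0.02 over the 12 treated libraries (adjusted p = 0.42). At 0.5 nM the call was lost without DMSO replicate 2 (adjusted p = 0.069) or 3 (0.093) and in a fit of the 6 libraries alone (0.18). Without 0.5 nM replicate 2 the change was 0.26 (adjusted p = 0.0076).

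JUNB, which can oppose JUN and restrain proliferation, fell with dose. Its 1 exon lies at chr19:12791486-12793315 on the plus strand. The DMSO libraries had 701, 579 and 550 normalized counts, and those at 0.5 nM 526, 555 and 577. At 5 nM it stood at 555, 499 and 498, still overlapping DMSO. At 50 nM the values were 362, 381 and 405, and at 500 nM 293, 349 and 276. The 6 libraries of the high doses lay below the other 9. In the step from 5 to 50 nM, 23.7% of all genes did not overlap. The libraries of 500 nM lay below those of 50 nM, a step in which 20.2% of all genes did not overlap.

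The log2 change of JUNB was -0.13 at 0.5 nM (adjusted p = 0.54), -0.23 at 5 nM (adjusted p = 0.28), -0.66 at 50 nM (adjusted p = 9.9e-05) and -0.99 at 500 nM (adjusted p = 3.1e-07), with an SE of 0.09. Without 0.5 nM replicate 2 the change at 0.5 nM was -0.14 (adjusted p = 0.63). Its slope of -0.25 ± 0.03 per step (adjusted p = 5.6e-07) was the steepest of the 10 members. The step from 5 to 50 nM was -0.43 ± 0.09 (adjusted p = 0.0085), the only member to pass there, where 5.01% of all genes passed, 2.62% rising and 2.39% falling. It was lost without 5 nM replicate 1 (adjusted p = 0.054) and without 50 nM replicate 1 (0.053), and all alternatives gave 9.4e-04 to 0.054. The step from 50 to 500 nM was -0.33 (adjusted p = 0.080), and it passed without 0.5 nM replicate 2 (0.041) or 500 nM replicate 2 (0.028), in a range of 0.028 to 0.33. Of the exon bases of JUNB, 14.2% are overlapped by HOOK2 on the other strand, and the strand setting of the counting is not given in the sources used here. HOOK2 stood at 186 ± 4.51 normalized counts in DMSO and 177 ± 35.2 at 500 nM, a log2 change of -0.09 (adjusted p = 0.68).

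JUND, the JUN family member that most cells express without stimulation, fell at the highest dose. It has 1 exon at chr19:18279694-18281622 on the minus strand. The DMSO libraries had 1635, 1645 and 1700 normalized counts. At 0.5 nM it stood at 1558, 1657 and 1484, at 5 nM at 1318, 1510 and 1639, and at 50 nM at 1417, 1536 and 1440. At 500 nM the values were 1360, 1110 and 1055, all below DMSO and below 50 nM, while 1 library of 5 nM lay under the highest of them.

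At 0.5 nM the change of JUND was -0.09 (adjusted p = 0.69), and -0.13 without replicate 2 of that dose (adjusted p = 0.59). The change of JUND at 500 nM was -0.51 ± 0.08 (adjusted p = 2.1e-04), while at 50 nM it was -0.18 (95% interval -0.35 to -0.01, adjusted p = 0.26). The change at 50 nM passed in a fit of the libraries of that contrast alone (adjusted p = 0.019), with a range over alternatives of 0.019 to 0.51. The slope was -0.11 ± 0.02 per step (adjusted p = 7.2e-04). From 50 to 500 nM it fell by 0.33 on the log2 scale (adjusted p = 0.044), the only member to pass in this step, where 2.28% of all genes passed, 0.479% rising and 1.8% falling. That step was near the threshold. It was lost with the replicate number as a block (adjusted p = 0.053), with edgeR (0.053), without the filter (0.066) and without any of 10 single libraries, where it reached at most 0.24.

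**Figure D2:**
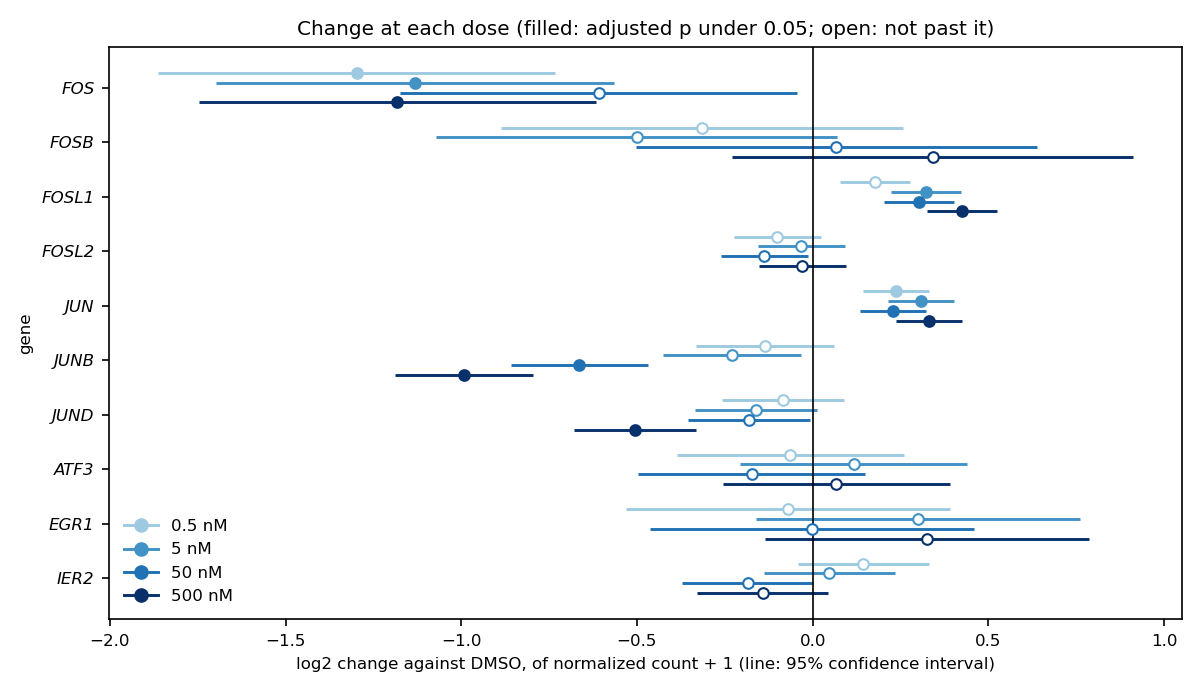
Log2 change of each gene (rows) against DMSO at the 4 doses of ZJ-101 (shades), on the scale of log2(normalized count + 1), with 95% confidence intervals as lines and filled points where the adjusted p of limma was under 0.05. JUN is filled at every dose near 0.23 to 0.33, JUNB steps from -0.13 to -0.99, and the intervals of FOS and FOSB are wider than those of FOSL1 and JUN.

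Within the FOS and JUN families, the shares of the members in the summed transcript level differed between DMSO and 500 nM. Other AP-1 partners are left out of these sums. Per kb of canonical transcript, FOSL1 made up 70.5% ± 1.55 (SD, n = 3) of the FOS family in DMSO and 77.5% ± 0.431 at 500 nM. FOS made up 2.67% ± 0.474 and 0.961% ± 0.186, and FOSL2 26.8% ± 2.02 and 21.5% ± 0.515. The level of FOSL2 itself had a log2 change of only -0.03 at 500 nM (limma, adjusted p = 0.79), while FOSL1 in the same sum rose. In the JUN family, JUN had 38.2% ± 0.772 in DMSO and 54.5% ± 1.88 at 500 nM. JUNB had 17.2% ± 1.70 and 9.81% ± 1.24, and JUND 44.6% ± 2.19 and 35.6% ± 2.71. JUND had the largest mean share of the JUN family in DMSO and JUN at every dose, with 43.9% against 40.9% for JUND at 0.5 nM. The summed level per kb of the FOS family was 3843 ± 115 in DMSO and 4688 ± 83.2 at 500 nM, and that of the JUN family 1932 ± 60.6 and 1705 ± 114. With the length of all exons in place of the canonical transcript, the share of JUN was 35.7% in DMSO and 51.9% at 500 nM, and that of FOSL1 70.2% and 77.0%. On that length JUN was still below JUND at 0.5 nM, with 41.2% against 42.8%, so the dose at which JUN passed JUND depended on the length used. Shares were not tested, since they restate the levels above.

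**Figure D3:**
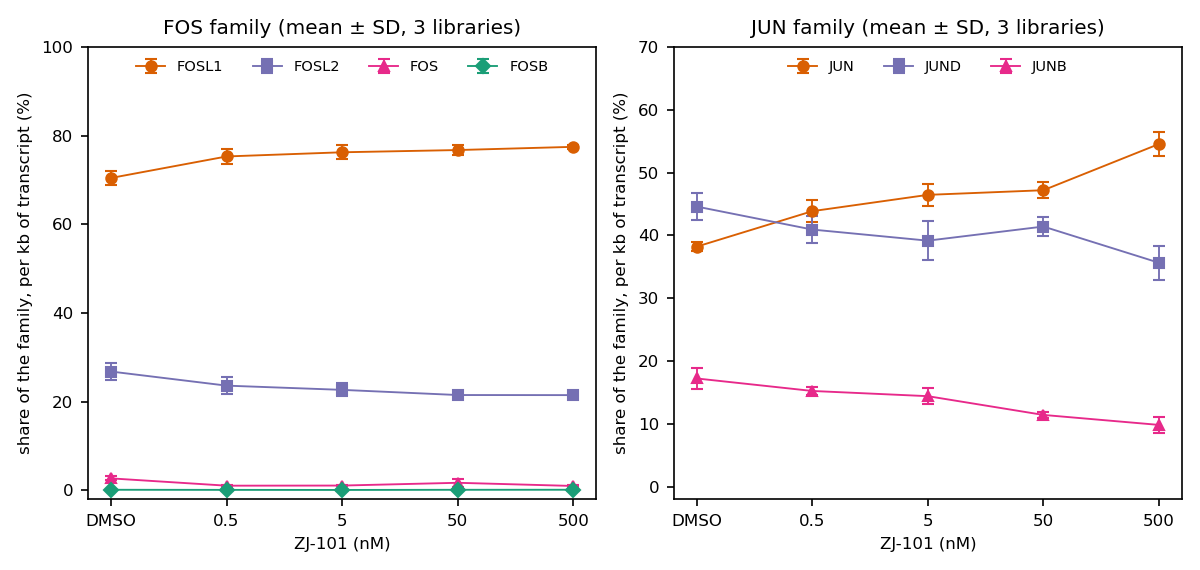
Share (%) of each FOS family gene (left) and JUN family gene (right) in the summed level of its family per kb of canonical transcript, against DMSO and the dose of ZJ-101 (nM), as mean ± SD of 3 libraries. The mean of JUN lies below that of JUND in DMSO (38.2% against 44.6%) and above it from 0.5 nM (43.9% against 40.9%) to 500 nM (54.5% against 35.6%). FOSL1 holds between 70.5% and 77.5% of its family.

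ATF3, a stress-induced factor that pairs with JUN proteins, with 4 exons at chr1:212565334-212620777 on the plus strand, lay between 57.4 and 93.9 normalized counts over all libraries, and each dose overlapped DMSO. Its log2 change ranged from -0.17 at 50 nM (adjusted p = 0.65) to 0.12 at 5 nM (adjusted p = 0.82), and at 500 nM it was 0.07 (95% interval -0.26 to 0.39). EGR1, the zinc finger factor that follows ERK activity through SRF, with 2 exons at chr5:138465479-138469303 on the plus strand, varied more between replicates than between groups. In DMSO it stood at 261, 150 and 139 normalized counts and at 500 nM at 285, 217 and 173. The change of 0.33 at 500 nM (95% interval -0.14 to 0.79) had an adjusted p of 0.36. DMSO replicate 1 and 500 nM replicate 1 were the 2 highest libraries of the 15.

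IER2, a nuclear immediate-early protein with 2 exons at chr19:13150411-13154911 on the plus strand, had 357, 342 and 329 normalized counts in DMSO. It lay below DMSO in all libraries of 50 nM (273 to 327) and of 500 nM (293 to 320). The changes were -0.18 (adjusted p = 0.29) and -0.14 (adjusted p = 0.31). Its slope of -0.06 per step had an adjusted p of 0.074, which passed over the 12 treated libraries (-0.11, adjusted p = 0.021) and without DMSO replicate 3 (0.043). Of its exon bases, 52.2% are overlapped by 2 genes on the other strand, and without strand its reads and theirs cannot be told apart.

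Across the 15 libraries the members did not move as 1 unit. FOSL1 and JUN had a Pearson r of 0.86 on the log2 scale, JUNB and JUND 0.73, and FOSL1 and JUNB -0.76. These values contain the dose groups. After each group mean was taken out, they were 0.17, -0.28 and 0.03, and the largest were 0.86 for JUN with EGR1 and -0.79 for FOSB with ATF3. They are descriptions over 15 libraries that share doses. Outside the members, the tested genes with the highest r to FOSL1 were AEN (0.91), a nuclease gene induced by p53, the receptor kinase gene AXL (0.91) and the RNA helicase gene DDX10 (0.89). AXL stood at 12212 ± 57.1 normalized counts in DMSO and 14203 ± 252 at 500 nM. For JUN they were MYEOV (0.93), DPAGT1 (0.90), the first enzyme of the lipid-linked oligosaccharide for N-glycans, and the mitochondrial carnitine carrier SLC25A20 (0.88). For EGR1, which passed at no dose, they were MON1B (0.86), SUPT5H (0.79) and PLEKHH1 (0.78). Picked as the highest of all tested genes outside the members, these r values also contain the dose groups. They were not tested, and high values are likely in so large a search over 15 libraries.

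The lists of related genes that follow were written from general knowledge with earlier results of these data known. Their shares beside those of all genes are therefore descriptions, not independent comparisons. Of 14 genes for partners of AP-1 proteins, 13 were tested, and at 500 nM 0 rose and 2 fell, a share of 15.4% against 17.8% of all genes. The median change of this list was -0.01. ATF2, which pairs with JUN at CRE-like sites, fell from 1193 ± 42.0 to 1027 ± 67.7 normalized counts, a log2 change of -0.22 ± 0.06 (adjusted p = 0.010). At 5 nM, CREB5, named after its values were seen, was the gene of the list that passed, with a log2 change of 0.44 (adjusted p = 0.036).

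Of 27 other immediate-early genes, 20 were tested, and at 500 nM 3 rose and 9 fell, which is 60% against 17.8% of all genes. The median of the list was -0.23, against 0.003 over all genes. PPP1R15A, the stress-induced phosphatase subunit GADD34, rose from 1012 ± 96.6 to 1264 ± 14.8 normalized counts (log2 change 0.32 ± 0.07, adjusted p = 0.0022). DUSP1, a nuclear phosphatase of JNK, p38 and ERK, rose from 747 ± 62.1 to 920 ± 57.4 (0.30 ± 0.08, adjusted p = 0.013). MCL1, a BCL2 family survival gene, rose by 0.14 ± 0.04 (adjusted p = 0.021), and 5.27% of its exon bases are shared with a gene on the same strand. IER5L fell from 750 ± 48.0 to 493 ± 17.1 (-0.60 ± 0.10, adjusted p = 3.0e-04), with 41.8% of its exon bases overlapped on the other strand. PTGS2, which encodes the prostaglandin enzyme COX-2, fell from 198 ± 13.0 to 135 ± 11.1 (-0.54 ± 0.09, adjusted p = 3.4e-04). KLF10, a TGF-beta induced repressor, fell from 1119 ± 17.7 to 807 ± 39.0 (-0.47 ± 0.05, adjusted p = 1.2e-06). EGR2, EGR3, EGR4, NR4A3, IER3, BTG2 and ARC were too low to be tested. IER3 has 5 copies on alternate contigs of the genome that could share its reads, so its low count need not mean little RNA. This was not tested. At lower doses, 1 gene of the list rose and 0 fell at 0.5 nM, 1 rose and 1 fell at 5 nM, and 1 rose and 4 fell at 50 nM, which is 5%, 10% and 25% of those tested against 1.17%, 2.18% and 6% of all genes. Named after their values were seen, these were MCL1 at 0.5 and 5 nM, IER5, which fell at 5 nM, PPP1R15A, which rose at 50 nM, and IER5L, CCN1, KLF10 and RHOB, which fell at 50 nM. The change of MCL1 at 0.5 nM was 0.18 (adjusted p = 0.046), and 0.21 without 0.5 nM replicate 2 (adjusted p = 0.014), a fit chosen after the data were seen.

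Of 25 upstream kinase genes and SRF-TCF factors, 24 were tested, and at 500 nM 1 rose and 3 fell, which is 16.7% against 17.8% of all genes. ELK3, a repressive TCF partner of SRF, rose from 2877 ± 74.6 to 3154 ± 142 normalized counts (log2 change 0.13 ± 0.04, adjusted p = 0.038). MAPK9, which encodes JNK2, fell by 0.15 on the log2 scale (adjusted p = 0.047), RPS6KA3, which encodes the ERK-activated kinase RSK2, by 0.18 (adjusted p = 0.042) and MAP2K6, a p38 activator, by 0.42 (adjusted p = 0.042). The 4 calls lie close to the threshold, and none of them was left when DMSO replicate 1, 2 or 3 or 500 nM replicate 2 was left out, or without the filter. ELK3 also passed at 5 nM (0.19, adjusted p = 0.022).

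Of 24 genes known as targets of AP-1, 19 were tested, and at 500 nM 5 rose and 7 fell, which is 63.2% against 17.8% of all genes. Their median was 0.03, with rises and falls of like number. The high share is limited by the choice of this list with earlier results known. GJA1, which encodes connexin 43, rose from 939 ± 58.4 to 1482 ± 15.1 normalized counts (log2 change 0.66 ± 0.06, adjusted p = 1.3e-07), though 1 near-identical site elsewhere in the genome could share its reads. IL11, a cytokine of the IL6 family, rose from 2547 ± 148 to 3253 ± 55.6 (0.35 ± 0.07, adjusted p = 0.0015). IL6 fell from 542 ± 7.95 to 269 ± 33.9 (-1.02 ± 0.12, adjusted p = 4.8e-06). The urokinase receptor gene PLAUR fell from 2794 ± 122 to 1503 ± 39.4 (-0.89 ± 0.05, adjusted p = 5.2e-10). The urokinase gene PLAU fell from 2825 ± 89.4 to 1624 ± 37.2 (-0.80 ± 0.05, adjusted p = 1.1e-09), with 31.0% of its exon bases overlapped on the other strand. PLAUR and PLAU, like JUNB, were first called at 50 nM, with log2 changes of -0.82 and -0.57. MMP3, MMP9, MMP10, MMP13 and SPP1 were too low to be tested. At 0.5 nM 2 genes of the list rose and 0 fell, which is 10.5% against 1.17% of all genes. At 5 nM 3 rose and 2 fell (26.3% against 2.18%), and at 50 nM 4 rose and 5 fell (47.4% against 6%). Named after their values were seen, those at 0.5 nM were MMP1 and HMGA1, which rose by 0.47 and 0.27, joined at 5 nM by IL6 and CXCL8, which fell. HMGA1, like GJA1, has 1 near-identical site elsewhere in the genome that could share its reads. Without 0.5 nM replicate 2, MMP1 and HMGA1 changed by 0.44 and 0.28 (adjusted p = 9.7e-04 and 0.011). MMP1, an interstitial collagenase, had turned to a fall of -0.53 at 500 nM (adjusted p = 2.4e-06).

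**Figure D4:**
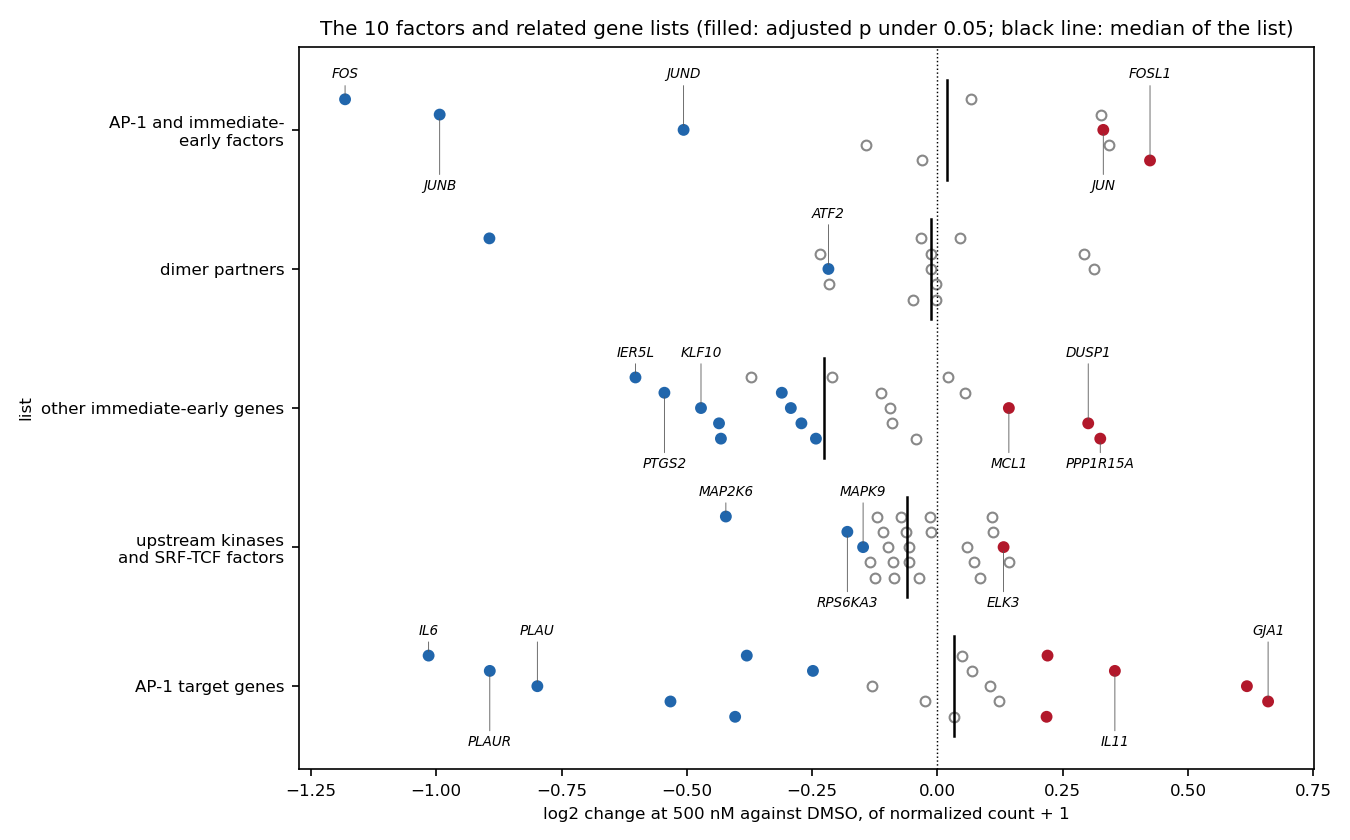
Log2 change at 500 nM against DMSO, on the scale of log2(normalized count + 1), for the 10 factors and the tested genes of 4 related lists (rows), with filled points where the adjusted p of limma was under 0.05 and a black line at the median of each list. The median of the other immediate-early genes lies at -0.23, while rises and falls stand on both sides among the 10 factors and the AP-1 target genes.

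Between neighbouring doses, 0 of the 10 members passed from 0.5 to 5 nM, where 0.118% of all genes passed, 0.0295% rising and 0.0885% falling, and 1 member, FOSL1, had an unadjusted p under 0.05. The FOSL1 libraries of 5 nM lay above those of 0.5 nM without overlap, which 10.6% of all genes did in one direction or the other. The same 0 calls came from edgeR and from DESeq2, which gave 6 of the members an adjusted p there. Over all 15 libraries, 2 members, FOSL1 and JUN, had a rising slope on dose rank and 2 a falling one, JUNB and JUND. Of all genes 17.6% passed, 8.23% rising and 9.33% falling.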

How the data were processed

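RNA of MDA-MB-231 cells was sequenced in 15 libraries, 3 per group, after 6 h with DMSO or ZJ-101. The authors sequenced poly-A RNA as paired 150 bp reads, which were aligned with HISAT2 (hg38), assigned to genes by htseq-count and scaled with size factors from DESeq2. The deposited signal values are these normalized counts. Versions and the strand setting are not given in the sources used here. In units of each library's smallest step, 100.0% of the values were whole to within 0.001, and size factors lay between 0.916 and 1.13. 1 line that names no gene was left out. The 3D spheroid experiment was not analysed here.

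The values were taken as log2(normalized count + 1), which understates changes of low genes, for 13561 genes whose mean reached 10. The 5 groups entered 1 limma fit with a variance trend and 10 residual degrees of freedom. Contrasts were each dose against DMSO and each pair of neighbouring doses, and a separate fit took the slope on dose rank, from 0 for DMSO to 4 for 500 nM. Benjamini-Hochberg adjustment ran over all tested genes, with 0.05 as threshold. The procedure was tested on simulated data. The 10 genes, the lists and the tests were chosen with earlier results of these data known. All 10 genes are named, and in each list every gene past the threshold at 500 nM where 6 or fewer passed, otherwise the 3 largest rises and 3 largest falls. For FOSL1, JUN and EGR1 the 3 tested genes with the highest Pearson r are also named. Some results that this rule selects are not reported here.

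Positions, lengths and overlaps come from GENCODE on GRCh38, and promoters from RefSeq. None of the 10 genes had a site of at least 95% identity over a large part of its canonical transcript elsewhere on the main chromosomes. Alternate contigs, searched under a stricter rule, held no copy either. Shorter copies were not counted. Alternatives were no filter or a mean of 50, pseudocounts of 0.5 and 5, scaling by TMM or to equal library totals, the replicate number as a block, edgeR and DESeq2 on the recovered reads, only the libraries of a contrast, and each library left out. Tools were Python 3.11.15, minimap2 2.31-r1302, R 4.3.3 and its packages DESeq2 1.42.0, edgeR 4.0.16 and limma 3.58.1.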

Additional observations from a re-analysis of the deposited data

How the results depend on the processing

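At 500 nM the same 5 members passed under every alternative run. Of 1979 values of single members under alternatives, 1918 kept their direction and their side of the threshold, 28 lost a call, 9 gained one, and 24, none of them called, changed sign. With only the libraries of a contrast, the members past the threshold at 0.5 nM numbered 1 in place of 2, and all genes 21 in place of 159 at 0.5 nM, 846 in place of 295 at 5 nM and 4 in place of 16 from 0.5 to 5 nM. From 50 to 500 nM, 0 members passed without the filter, with the replicate block and with edgeR, in place of 1. Without the filter, 1 dimer partner and 0 upstream genes passed at 500 nM, and with DESeq2 1 and 2, in place of 2 and 4. DESeq2 called 29 genes from 0.5 to 5 nM, and at 0.5 nM 33.2% of its calls were rises, against 21.4% with limma. It gave no adjusted p at 0.5 nM for FOS, FOSB, ATF3 and EGR1. Leaving out 1 library gave 0 to 2 members at 0.5 nM, 2 to 3 at 5 nM, 3 to 4 at 50 nM and 5 at 500 nM, 0 to 1 from 5 to 50 nM, 0 to 2 from 50 to 500 nM and 4 to 5 by the slope. The counts of all genes ranged from 19 to 391, 113 to 623, 560 to 1276 and 1795 to 3097 at the 4 doses, 7 to 25, 424 to 1129 and 139 to 630 over the 3 steps and 1783 to 2688 by the slope. The lists at 500 nM gave 1 to 3 dimer partners, 9 to 12 other immediate-early genes, 0 to 6 upstream genes and 11 to 12 AP-1 targets. The library behind the highest of these gene counts at 5 and 50 nM and over the 3 steps was 0.5 nM replicate 2. It enters these contrasts through the shared spread, and the step from 0.5 to 5 nM also through the mean of its group. The lowest counts at 0.5 and 5 nM (19 and 113) came without DMSO replicate 1. The cause was not tested. Signs changed for EGR1 at 50 nM (0.00042 with the same total per library) and for slopes over the treated libraries (FOS 0.087, FOSL2 0.011). When single libraries were left out, the log2 change ranged at 0.5 nM from -0.14 to 0.056 for ATF3 and -0.24 to 0.21 for EGR1, at 5 nM from -0.021 to 0.19 for ATF3 and -0.025 to 0.084 for IER2, and at 50 nM from -0.13 to 0.29 for FOSB and -0.17 to 0.28 for EGR1. The slope of ATF3 ranged from -0.015 to 0.013. From 0.5 to 5 nM the ranges were -0.29 to 0.013 for FOSB, -0.015 to 0.12 for FOSL2 and -0.15 to 0.0079 for JUND, from 5 to 50 nM -0.059 to 0.028 for FOSL1 and -0.10 to 0.053 for JUND, and from 50 to 500 nM -0.029 to 0.10 for IER2. Same-numbered libraries shared little of their deviation from the group means (r from -0.09 to 0.10, 0 of 30 pairs over 0.1). Still, 9 of 15 libraries were closest to one of their own number. These values do not decide whether the numbers pair the samples. Beside the step of JUND, the replicate block changed no call of a member. FOSB had the fewest reads of the members, 9 to 21 per library.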
